A study of Mus musculus with 178 samples.

Results

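The MHC class II presentation genes are the 10 genes H2-Aa, H2-Ab1, H2-Eb1, Cd74, H2-DMa, H2-DMb1, H2-DMb2, H2-Oa, H2-Ob and Ciita, found by their symbols among the 55450 genes of the count table. All 10 passed the filter on low counts in every comparison. They were followed in 178 libraries of bulk RNA from the whole blood of 45 C57BL/6J mice of both sexes that carried orthotopic tumors of 4MOSC1 cells (a carcinogen-induced squamous carcinoma line of the mouse mouth) in the tongue or the buccal mucosa. All mice received an antibody against PD-1 (clone RMP1-14), an immune checkpoint blockade, and no untreated arm was analysed here. Day 4 was the pre-treatment time point, and Days 9, 17 and 24 were on treatment. The sources used here differ on whether treatment began on Day 4 or later, so the time on treatment at Day 9 is uncertain. By tumor response, 15 mice were responders and 30 were non-responders. Responders gave 15 libraries per day, except for 14 on Day 17, and non-responders gave 30 per day, except for 29 on Day 4. Since every mouse was treated, effects of treatment, tumor growth and time cannot be told apart in changes from Day 4.

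MHC class II molecules carry peptides from the endocytic route to CD4+ T cells. H2-Aa and H2-Ab1 encode the alpha and beta chains of I-A, and H2-Eb1 encodes the beta chain of I-E, whose alpha chain is not made in C57BL/6 mice. Cd74, the invariant chain, fills the groove until its remnant CLIP is removed by H2-DM (H2-DMa with H2-DMb1 or H2-DMb2), and H2-O (H2-Oa with H2-Ob) inhibits H2-DM, mainly in B cells. Ciita is the transactivator of the whole set and acts through factors bound to the X and Y boxes of class II promoters. In blood the genes are carried mostly by B cells, with smaller contributions of monocytes and dendritic cells. In whole blood RNA, fewer cells of a type and less class II RNA per cell cannot be told apart.

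The promoter stretches of 6 genes are shown because H2-Aa, H2-Eb1, H2-DMb2 and H2-Oa fell together after Day 4 while H2-DMb1 and H2-Ob did not. The sequences are from RefSeq (GRCm38.p6), read on the strand of the gene. Capitals mark the Y box core ATTGG and, where it was found 15 to 45 bases before it on the same strand, the X box core GNAAC.
H2-Aa, chr17:34287852-34287916, minus strand: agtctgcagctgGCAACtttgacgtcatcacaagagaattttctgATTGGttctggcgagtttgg
H2-Eb1, chr17:34305763-34305827, plus strand: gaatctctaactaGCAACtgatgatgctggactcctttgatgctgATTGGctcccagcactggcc
H2-DMb1, chr17:34153085-34153149, plus strand: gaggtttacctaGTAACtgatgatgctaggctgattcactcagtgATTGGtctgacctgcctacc
H2-DMb2, chr17:34145114-34145178, plus strand: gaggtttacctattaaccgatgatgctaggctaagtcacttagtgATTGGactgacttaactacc
H2-Oa, chr17:34092291-34092355, plus strand: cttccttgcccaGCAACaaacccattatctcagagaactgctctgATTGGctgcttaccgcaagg
H2-Ob, chr17:34238803-34238867, plus strand: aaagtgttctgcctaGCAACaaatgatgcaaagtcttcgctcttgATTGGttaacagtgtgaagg
Windows of 250 bases before the start were available for 7 of the 10 genes, with 2 windows for H2-DMa. The pair of X and Y box cores, on either strand, was found in 5 of these genes and in 4.15% of 32851 promoter windows, and ATTGG on either strand alone in 33.8%. The letters searched were chosen after these sequences had been read. Over the 65 bases aligned on the Y box core, H2-DMb1 and H2-DMb2 had 56 identical and 9 different bases. A match is a description of the letters in the window, and no factor binding was measured.

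The H2 genes lie together on chromosome 17 (GRCm38) between H2-Oa, at positions 34092340 to 34095234, and H2-Eb1, at 34305867 to 34316674, on the plus strand except for H2-Aa, which lies on the minus strand at 34282744 to 34287823. Ciita lies on chromosome 16 (10480059 to 10528418, plus strand) and Cd74 on chromosome 18 (60803848 to 60812652, plus strand). Reads may not separate all of them. Of the distinct 50-base words of the annotated H2-DMb1 transcripts, 22.7% also occurred in H2-DMb2, and both genes had fractional counts in 98.88% of libraries, whereas the counts of the other 8 genes were whole in every library. Their counts were therefore shared in part by the authors' counting, and each of the H2-DMb values below carries that limit. H2-DMa (with Brd2) and H2-Oa (with BC051537) also overlap other annotated genes, at 8.43% and 15.5% of their words, and reads of the overlap cannot be told apart without strand.

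Total counts per library ranged from 26058944 to 82208651, of which haemoglobin genes took 68.66 to 88%. The 10 class II genes together had 1917 to 185930 counts per library, with a median of 63314.5. The lowest sum belonged to a library that stood apart, that of non-responder 29 on Day 24, whose TMM scaling factor was 0.0848 against 0.266 in the next lowest library. It had the lowest level of 8 of the 10 genes over all libraries, H2-DMa and H2-DMb1 being the exceptions. The main Day 24 comparisons of non-responders with Day 4 and with responders are given with and without it. The Day 17 library of non-responder 24 is called a responder in its own description, whereas the other 3 libraries of this mouse carry non-responder labels, and its Day 17 library was analysed with the non-responders (no call changed with it as a responder). The numbers of the animals have 4 digits in 18 mice (11 responders and 7 non-responders) and 3 digits in 27 mice (4 responders and 23 non-responders), so that this possible batch is unequal between the response groups. The B cell markers were detected in every group, with a summed level of 201.3 to 872 CPM (counts scaled to library size). The sums were 4.278 to 10.93 CPM for all listed plasmacytoid and 6.472 to 17.97 CPM for all listed conventional dendritic cell markers. Of these lists, 4 and 7 markers passed the filter, and the sums were not limited to them.

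Levels between genes were compared on the TPM scale, which divides by gene length. Over the 178 libraries, Cd74 had the highest median, at 219.7 TPM (lowest 6, highest 680.4). The chains of the class II molecules followed, with a median of 87.66 TPM for H2-Aa, 69.84 TPM for H2-Ab1 and 50.37 TPM for H2-Eb1. H2-Ob (19.06 TPM) and H2-DMb2 (17.53 TPM) came next and were not separated from each other: H2-Ob was the higher of the pair in 135 libraries, with a mean log2 ratio of 0.10 ± 0.32 (SD, n = 178). H2-DMa had a median of 8.925 TPM. H2-DMb1 (5.92 TPM) and H2-Oa (5.42 TPM) were likewise not separated, with a log2 ratio of 0.06 ± 0.47 (SD, n = 178). Ciita was lowest, at 3.11 TPM, and below H2-Oa in all 178 libraries. The other neighbours kept their order in 175 to 178 libraries. The partners of the H2-O heterodimer thus differed in level, H2-Ob being above H2-Oa, and so did the H2-DMb genes, H2-DMb2 being above H2-DMb1.

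**Figure D1:**
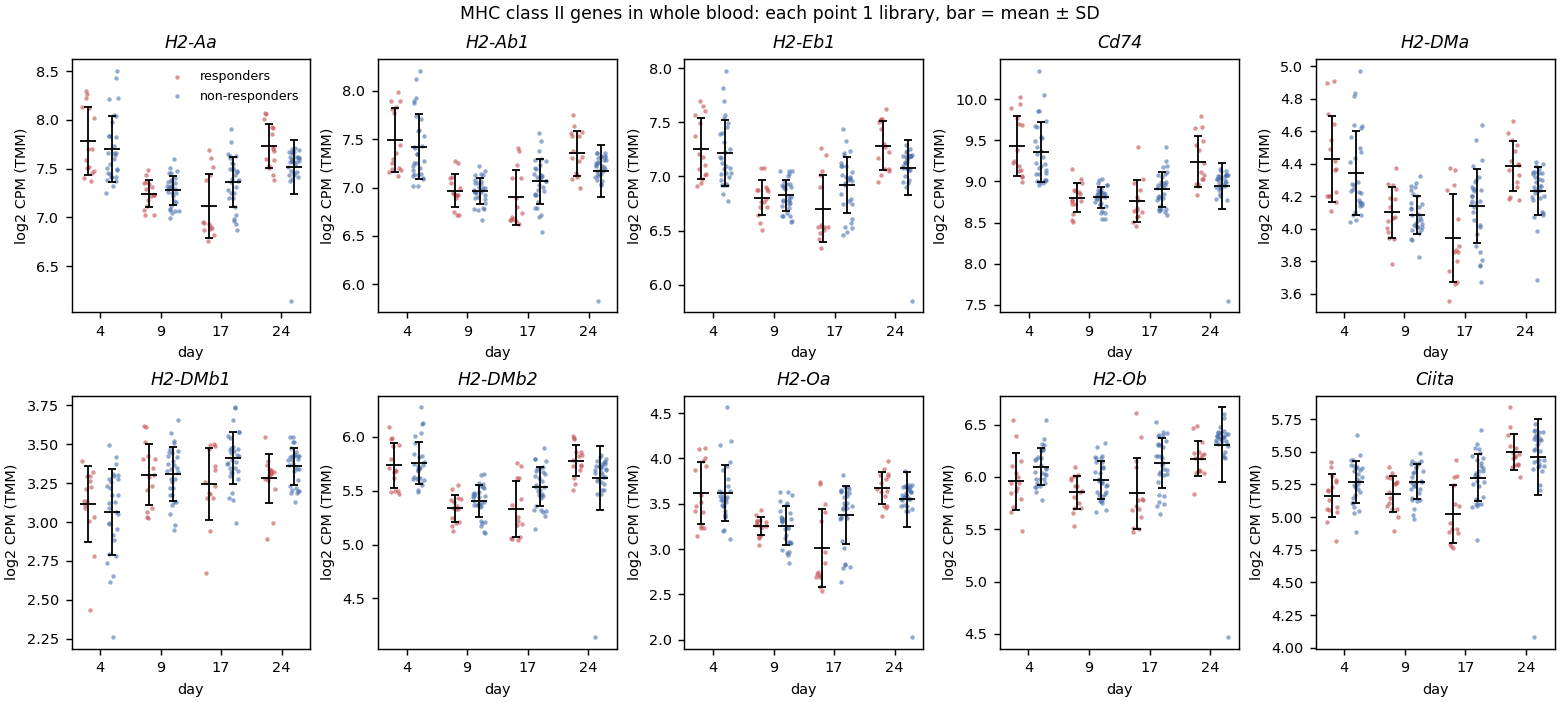
Level of each class II gene (log2 CPM after TMM scaling, vertical axis, a scale of its own per gene) by day for responders (red, left of each day) and non-responders (blue, right). Each point is 1 library and the bars are the mean ± SD. The medians of 7 genes are lower on Days 9 and 17 than on Day 4 in both groups, that of H2-DMb1 is not, and 1 non-responder library lies below the others on Day 24 in most panels.

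On Day 9, 7 of the 10 genes fell in both response groups: H2-Aa, H2-Ab1, H2-Eb1, Cd74, H2-DMa, H2-DMb2 and H2-Oa. H2-DMb1 rose in both groups, and H2-Ob and Ciita did not pass the test in either. On log2(TPM + 1), limma called none of the 10 genes in responders, where it called 1.7% of all genes. Their median log2 fold change was -0.29 there, against -0.39 on TMM-scaled counts. Cd74 was at -0.56 (adjusted p = 0.29) and H2-Aa at -0.48 (adjusted p = 0.5), while H2-Oa was at -0.26, against -0.38 on TMM-scaled counts. In non-responders limma called 5 of the 10 genes, H2-DMb1 not among them (0.14, adjusted p = 0.56), and 20.3% of all genes. Genes called at an adjusted p of at most 0.05 (edgeR quasi-likelihood test, Benjamini-Hochberg adjustment over all genes) made up 27.7% of the 12560 genes tested in responders and 50.8% of the 13009 genes tested in non-responders, so that a change was common in this comparison, above all in non-responders. Lower calls alone made up 14.2% and 27.5%, and higher calls 13.5% and 23.3%. The median log2 fold change of the 10 genes was -0.39 in responders and -0.37 in non-responders, against 0.01 and -0.01 over all genes tested.

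The invariant chain Cd74 had the largest decrease of the set. Its level in responders on Day 4 was 8.99 at the lowest, 9.25 at the median and 10.02 at the highest (log2 CPM, n = 15), and on Day 9 it was 8.50, 8.77 and 9.16. The ranges overlap only between 8.99 and 9.16, and all 15 responders were lower on Day 9 than on Day 4. In non-responders the level went from a median of 9.23 (8.95 to 10.35, n = 29) to 8.83 (8.54 to 9.02, n = 30), and 29 of 29 mice were lower. The log2 fold change was -0.65 (SE 0.110, adjusted p = 1.1e-05, edgeR) in responders and -0.60 (SE 0.068, adjusted p = 4.8e-13) in non-responders, a level of 0.64 and 0.66 times that of Day 4.

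Genes of the presenting chains moved with it. H2-Ab1, the beta chain of I-A, had a median log2 CPM of 7.36 in responders on Day 4 (7.12 to 7.99) and of 6.93 on Day 9 (6.71 to 7.28), and its ranges in non-responders were 7.01 to 8.21 and 6.66 to 7.22. It fell by 0.54 and 0.50 on the log2 scale (adjusted p = 2.8e-05 and 1.1e-10, edgeR), in 15 of 15 responders and 28 of 29 non-responders. H2-Aa, its partner, fell by 0.56 and 0.46 (adjusted p = 3.3e-05 and 4e-09), and H2-Eb1 by 0.46 and 0.42 (adjusted p = 0.00017 and 1.3e-08). Both were lower in all 15 responders and in 26 of 29 non-responders. The chains of the I-A molecule thus changed by like amounts (standard errors of each gene alone 0.065 to 0.104), and the difference between the chains was not tested. The spread of H2-Aa between mice was narrower on Day 9: the SD of its level was 0.35 and 0.34 in responders and non-responders on Day 4 and 0.14 and 0.15 on Day 9. On Day 17 the SD was 0.33 and 0.26.

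Among the peptide editors, H2-DMa fell by 0.33 in responders and 0.28 in non-responders (adjusted p = 0.0014 and 2.4e-06, edgeR), with a median level that went from 4.37 to 4.07 and from 4.24 to 4.07 log2 CPM. H2-DMb2 fell by 0.40 and 0.36 (adjusted p = 3.3e-05 and 1.3e-09), and all 15 responders were lower. H2-DMb1 rose by 0.19 (SE 0.074, adjusted p = 0.044) in responders and 0.23 (SE 0.048, adjusted p = 2.7e-05) in non-responders, and 11 of 15 and 24 of 29 mice were higher. Its call in responders was lost when responder 1, 3, 4, 5, 6, 9, 10, 11, 13 or 14 was left out (adjusted p up to 0.12), with haemoglobin genes removed (adjusted p = 0.051) and among 4-digit animals alone (0.13, adjusted p = 0.26). Of the H2-DM modulators, H2-Oa fell by 0.38 in both groups (adjusted p = 0.0051 and 1.7e-06), and its ranges in responders were 3.14 to 4.11 log2 CPM on Day 4 and 3.04 to 3.43 on Day 9. H2-Ob had log2 fold changes of -0.11 (adjusted p = 0.39) and -0.13 (adjusted p = 0.061), the latter passing with the mouse as a block (adjusted p = 0.043). Ciita had log2 fold changes of 0.02 and -0.00, with 95% intervals of -0.11 to 0.15 and -0.10 to 0.09.

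**Figure D2:**
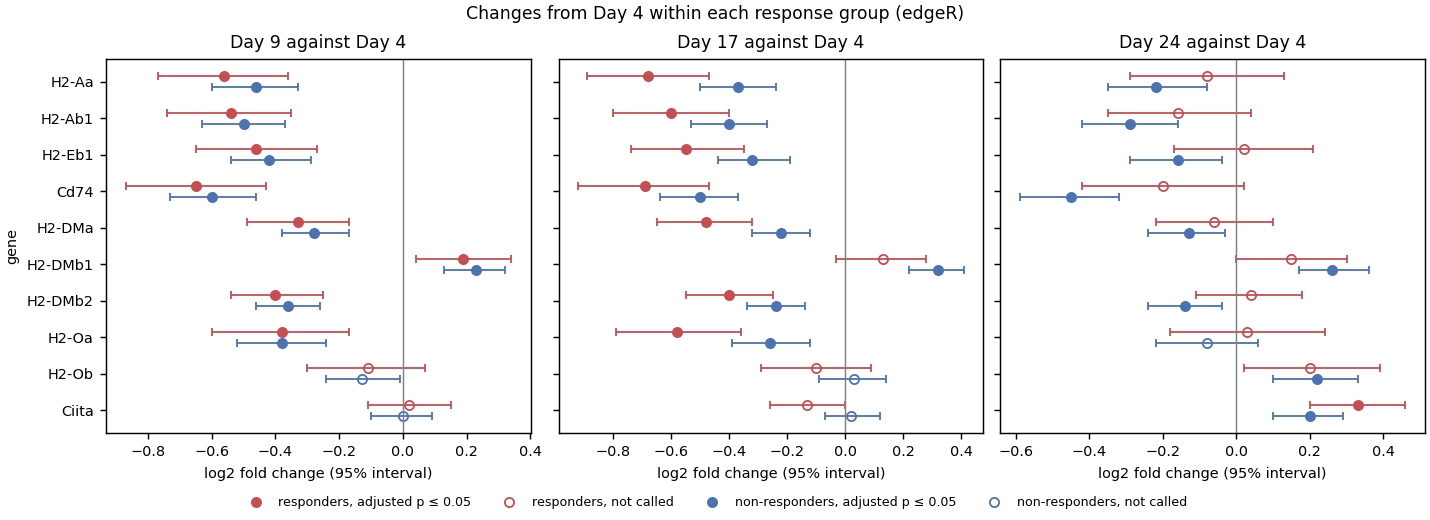
Log2 fold change from Day 4 (horizontal axis) of each gene (vertical axis) within responders (red) and non-responders (blue) on Days 9, 17 and 24. Points are edgeR estimates with 95% intervals, filled where the adjusted p was at most 0.05. H2-Aa, H2-Ab1, H2-Eb1, Cd74, H2-DMa, H2-DMb2 and H2-Oa lie left of 0 in both groups on Days 9 and 17, and Ciita lies right of 0 in both on Day 24, although in TPM its non-responder value was -0.20.

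On Day 17 the same 7 genes were still below Day 4 in both groups, by 0.40 to 0.69 on the log2 scale in responders and by 0.22 to 0.50 in non-responders. Called genes made up 25.6% and 46.1% of those tested, lower calls 13.4% and 24.2%, and higher calls 12.2% and 21.9%. The level of H2-Aa on Day 17 was 6.76 at the lowest, 6.94 at the median and 7.69 at the highest in responders (n = 14), a log2 fold change of -0.68 (SE 0.106, adjusted p = 6.9e-06, edgeR), and all 14 mice were lower than on Day 4. In non-responders it was 6.87, 7.38 and 7.91 (n = 30), a log2 fold change of -0.37 (SE 0.068, adjusted p = 2.9e-06), and 25 of 29 mice were lower. The responder median lay near the low end of the non-responder range, and the ranges overlap. H2-Oa fell by 0.58 and 0.26 (adjusted p = 9.9e-05 and 0.0014), and Cd74 by 0.69 and 0.50 (adjusted p = 1.2e-05 and 1.1e-09). H2-DMb1 rose in non-responders (0.32, adjusted p = 2.7e-08, against -0.05 on log2(TPM + 1), where the median of all genes was -0.14) and had a log2 fold change of 0.13 (adjusted p = 0.22) in responders. Neither H2-Ob (-0.10 and 0.03) nor Ciita (-0.13 and 0.02) passed the test.

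On Day 24, 1 of the 10 genes passed the test in responders and 9 passed in non-responders. The gene called in responders was Ciita, and it rose (3 genes had an unadjusted p under 0.05, and DESeq2 also called 1). Called genes made up 17.4% of those tested in responders (7.44% higher, 9.94% lower) and 48.7% in non-responders (23.8% higher, 24.8% lower). The level of Ciita in responders was 4.82, 5.20 and 5.42 log2 CPM (lowest, median, highest) on Day 4 and 5.30, 5.47 and 5.84 on Day 24, so that the ranges overlap only at their ends. It rose by 0.33 (SE 0.064, adjusted p = 0.00049, edgeR), and 13 of 15 mice were higher. In non-responders Ciita rose by 0.20 (SE 0.047, adjusted p = 0.00034, with -0.20 on log2(TPM + 1)), in 24 of 29 mice, from a median of 5.28 to 5.52. The other 9 genes in responders had log2 fold changes of -0.20 to 0.20 with adjusted p of 0.12 or more, and 95% intervals that reached at most from -0.42 (Cd74) to 0.39 (H2-Ob).

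In non-responders on Day 24, H2-Aa, H2-Ab1, H2-Eb1, Cd74, H2-DMa and H2-DMb2 were lower than on Day 4 and H2-DMb1, H2-Ob and Ciita were higher, the last 3 with negative values on log2(TPM + 1) (-0.11, -0.15 and -0.20, where the median of all genes was -0.16). Cd74 fell by 0.45 (SE 0.068, adjusted p = 4.3e-08), and 25 of 29 mice were lower. H2-Ab1 fell by 0.29 and H2-Aa by 0.22 (adjusted p = 0.00017 and 0.0051, edgeR), with 21 and 18 of 29 mice lower. The decreases of H2-Eb1 (0.16), H2-DMa (0.13) and H2-DMb2 (0.14) were small, and leaving out single non-responders brought the number of called genes from 9 down to 6. H2-DMb1 rose by 0.26 (adjusted p = 3.6e-06) and H2-Ob by 0.22 (adjusted p = 0.0011). H2-Ob was higher in 27 of 29 non-responders, with a median that went from 6.08 to 6.38 log2 CPM. Without the library of non-responder 29, 3 genes were again called higher and 6 lower. With the number series and its interaction with day in the fit, 3 were called higher and 2 lower (32.4% of all genes called). That fit gives the change of each series equal weight, although the series differ in the number of mice, and it held the library of non-responder 29. Cd74 and H2-Ab1 remained lower, while H2-Aa was at -0.14 (adjusted p = 0.11), H2-DMb2 at -0.12 (adjusted p = 0.11), H2-Eb1 at -0.09 and H2-DMa at -0.06.

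Within each number series the counts of called class II genes differed, and so did the share of all genes called. Among the 3-digit non-responders alone, 7 genes were called lower and 3 higher on Day 24, where 52% of all genes were called. Among the 4-digit non-responders alone (7 mice), none was called on Day 24, where 3.96% of all genes were, and without the library of non-responder 29 the log2 fold changes of H2-Aa, H2-Ab1 and H2-Eb1 were 0.13, 0.07 and 0.16 and that of Cd74 -0.11 (adjusted p = 0.50), with Ciita alone called (0.30, adjusted p = 0.011), as were 2.23% of all genes. On Day 9, the 4-digit non-responders gave 0 called genes with that Day 24 library in the fit, which shares 1 estimate of the spread over the 4 days, and 7 lower without it, Cd74 at -0.27 (adjusted p = 0.0058), while the share of all genes called was 14.3% and 26.4%. On Day 17 they gave 4 lower with it and 8 lower without it, at 12.7% and 25.6% of all genes. H2-Ob was among those 8 (-0.31, adjusted p = 0.0037, edgeR), whereas it was called higher among the 3-digit non-responders (0.11, adjusted p = 0.046), where 51.4% of all genes were called. On Day 9, 7 genes were lower among the 4-digit responders (17.3% of all genes called), 4 among the 4 responders with 3-digit numbers (6.91%), and 7 among the 3-digit non-responders (53.8%). On Day 17, where 19.8% of all genes were called, 9 genes were lower among the 4-digit responders, H2-Ob and Ciita included (-0.34 each, adjusted p = 0.0031 and 0.00013), whereas the 4 responders with 3-digit numbers gave none, in a fit that called 0 of all 12675 genes, with log2 fold changes of -0.47 for H2-Aa (adjusted p = 0.12), -0.67 for Cd74 (adjusted p = 0.088), 0.34 for H2-Ob and 0.33 for Ciita. The differences between the series were not tested.

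None of the 10 genes passed the test of the difference of the changes between responders and non-responders on Day 9, 17 or 24 (edgeR interaction over all 178 libraries). Called genes made up 0%, 0.351% and 3.76% of the 13688 genes tested. DESeq2 also gave 0 of the 10 genes on each day. At an unadjusted p under 0.05 there were 0 of the 10 genes on Day 9, 6 on Day 17 and 0 on Day 24. The largest Day 17 differences on TMM-scaled counts were below 0, responders having the lower change: H2-Oa -0.33 (95% interval -0.58 to -0.09), H2-Aa -0.32 (-0.56 to -0.08) and H2-DMa -0.28 (-0.46 to -0.09), with adjusted p of 0.33, 0.32 and 0.22. The median Day 17 difference of the 10 genes was -0.25 in 4-digit and -0.03 in 3-digit animals alone, and it had the opposite sign on log2(TPM + 1), at 0.38, where that of all genes was 0.21. On Day 24 that of Cd74 was 0.24 (-0.00 to 0.48, adjusted p = 0.27). On TMM-scaled counts the decrease of Cd74 that was called in non-responders alone on Day 24 is therefore not shown to differ from that of responders. On log2(TPM + 1), limma called this difference for Cd74 (0.91, adjusted p = 0.042) and H2-DMb2 (0.78, adjusted p = 0.048), where 9.69% of all genes were called and their median was 0.19.

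The comparison of responders with non-responders on each day asks whether the level of the class II genes went with response to anti-PD-1. None of the 10 genes passed both thresholds (a fold of 1.5 or more in either direction, at an adjusted p no higher than 0.05) on any day, where 4.21%, 3.65%, 0.264% and 0.297% of genes did on Days 4, 9, 17 and 24. DESeq2 gave 0 as well. At the adjusted p alone, where 7.42% and 13.4% of all genes passed on Days 4 and 9, none of the 10 genes passed on these days. At an unadjusted p under 0.05 there were 0, 2, 8 and 6 of the 10 genes. On Day 4 the log2 fold changes lay between -0.12 and 0.10, and the widest interval was that of Cd74 (-0.17 to 0.33). On Day 9 they lay between -0.12 and 0.02, and the interval of Cd74 was -0.10 to 0.10. For all 10 genes on all 4 days the 95% interval lay within a fold of 1.5 in either direction.

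On Day 17 the log2 fold changes of all 10 genes were below 0, between -0.33 and -0.14, and Ciita (-0.27, 95% interval -0.40 to -0.14, adjusted p = 0.028, edgeR) passed the adjusted p alone, as did 1.99% of all genes. Its level was 4.76, 4.93 and 5.43 log2 CPM in responders (n = 14) and 4.83, 5.32 and 5.67 in non-responders (n = 30), and these ranges overlap. The levels on that day went with the number series: Ciita had a mean of 4.91 ± 0.12 (SD, n = 10) in 4-digit responders and 5.07 ± 0.11 (n = 7) in 4-digit non-responders, against 5.33 ± 0.08 (n = 4) and 5.37 ± 0.13 (n = 23) in 3-digit animals. For H2-Aa the means were 6.97 ± 0.26 and 7.01 ± 0.11 in the 4-digit series and 7.48 ± 0.10 and 7.48 ± 0.17 in the 3-digit series, nearly equal between the response groups within each. With the series as a covariate, the median difference of the 10 genes on Day 17 was -0.01, against -0.20 without it, and the median was -0.05 within the 4-digit and 0.00 within the 3-digit series. The median difference of the changes to Day 17 was -0.18 with the series and its interaction with day in the fit, against -0.21 without them.

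On Day 24, Cd74 was higher in responders (0.31, 95% interval 0.13 to 0.48, adjusted p = 0.023, edgeR), as was H2-DMa (0.15, interval 0.06 to 0.24, adjusted p = 0.028), both past the adjusted p alone, as were 8.55% of all genes. The level of Cd74 was 8.84, 9.12 and 9.80 log2 CPM in responders (n = 15) and 7.55, 9.00 and 9.15 in non-responders (n = 30). The upper part of the responder range thus lies above all non-responders, and the medians are close. H2-Aa, H2-Ab1 and H2-Eb1 had log2 fold changes of 0.21, 0.18 and 0.20 with adjusted p of 0.071, 0.12 and 0.063. Without the library of non-responder 29, 7 of the 10 genes passed the adjusted p alone on Day 24, with 0.28 for Cd74 (adjusted p = 0.0026), 0.19 for H2-Aa (adjusted p = 0.0087) and -0.18 for H2-Ob (adjusted p = 0.0027) among them, each still under a fold of 1.5, and H2-Ab1, H2-Eb1, H2-DMa and H2-DMb2 at 0.12 to 0.18. Within the series, Cd74 was at 0.43 among 4-digit and 0.18 among 3-digit animals (adjusted p = 0.35 and 0.37), and at 0.32 with the series as a covariate (adjusted p = 0.092). The 4-digit and covariate fits held the library of non-responder 29 and were not run without it. Cd74 was at 7.55 log2 CPM in that library, against a median of 8.95 in the 4-digit non-responders on Day 24 (n = 7). None of the 10 genes was called within either series on any day, with medians of 0.27 and 0.07 on Day 4, 0.03 and -0.08 on Day 9, and 0.25 and 0.08 on Day 24. The 4-digit median of Day 24 includes the library of non-responder 29.

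**Figure D3:**
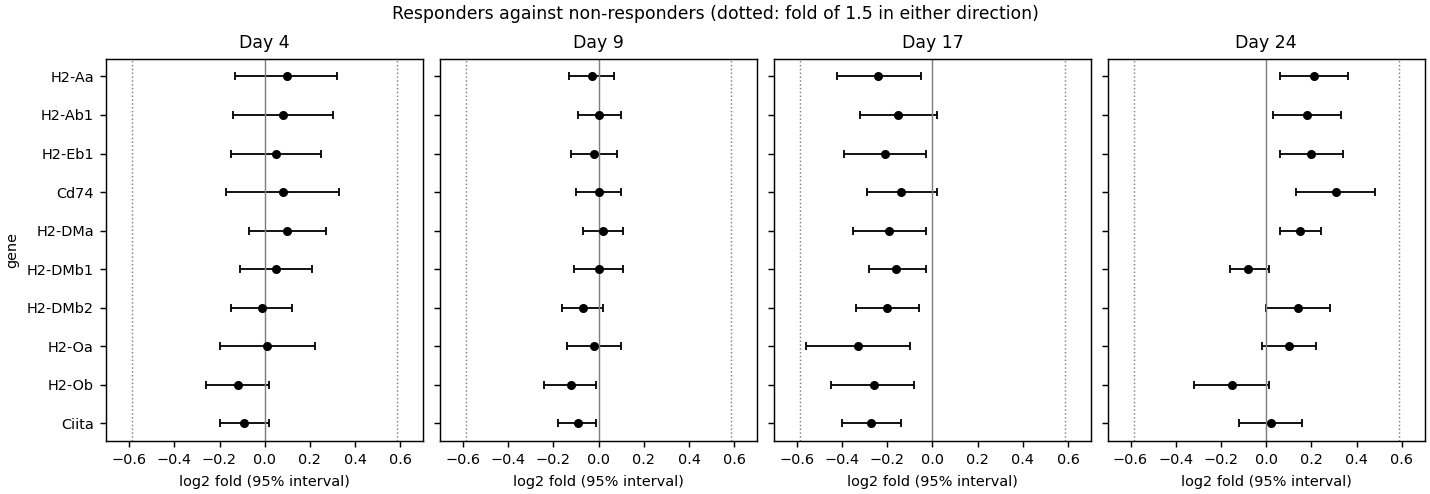
Log2 fold of responders over non-responders (horizontal axis) for each gene (vertical axis) on each day, with 95% intervals (edgeR). Dotted lines mark a fold of 1.5 in either direction. All intervals lie within the dotted lines, all 10 points lie left of 0 on Day 17, and 8 of 10 lie right of 0 on Day 24.

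The unit of the values mattered for this comparison. In TPM, which shares 1 sum per library with the haemoglobin transcripts, the median level of H2-Aa on Day 4 was 66.26 in responders (31.94 to 148.3) and 138.0 in non-responders (73.65 to 236.1), while the TMM-scaled medians were 7.70 and 7.64 log2 CPM. On log2(TPM + 1), limma called all 10 genes lower in responders on Day 4, where 8.03% of all genes were called, and 9 on Day 9, where 6.26% were, with medians of -0.72 and -0.71, where the median of all genes was shifted to -0.27 and -0.26. Relative to that median of all genes, the 10 genes were lower by 0.45 on both days on log2(TPM + 1). The added 1 shrinks differences of genes with low TPM, so that median need not equal the offset between libraries. Its part in the 0.45 was not tested. On TMM-scaled counts their median relative to that of all genes was 0.06 on Day 4 and 0.00 on Day 9. Which scale gives the class II difference was not tested. On Day 24 the median of the 10 genes was -0.01 on log2(TPM + 1), against 0.15 on TMM-scaled counts, and neither Cd74 nor H2-DMa was called. The haemoglobin share of counts had medians of 83.8% in responders and 79.44% in non-responders on Day 4, 83.07% and 78.5% on Day 9, 83.19% and 81.84% on Day 17, and 80.91% and 81.36% on Day 24, where the order was turned. Erythroid markers were higher in responders on Day 9 in 5 of 5 genes (median 0.81). With haemoglobin genes removed before TMM scaling, no class II gene was called on any day, as in the comparison that kept them.

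H2-DMb1 and H2-DMb2, paralogs that encode alternative beta chains of H2-DM, were called in opposite directions on Day 9. On that day the log2 difference of H2-DMb1 over H2-DMb2 rose by 0.59 ± 0.35 (SD) within 15 responders, 14 of them upward, and by 0.60 ± 0.39 within 29 non-responders, all of them upward. These are descriptions of a pair chosen after its values were known, and carry no test. The share of H2-DMb1 in the summed counts of the pair went from a median of 13.72% to 20.17% in responders and from 14.3% to 18.28% in non-responders. On Day 24 it was 14.9% and 16.94%. The direction was not opposite throughout: the log2 fold changes of H2-DMb1 and H2-DMb2 were 0.15 and 0.04 in responders on Day 24 and -0.06 and -0.31 in 4-digit non-responders on Day 17, none of them called. The summed counts of the pair changed by -0.30 ± 0.20 and -0.26 ± 0.22 (log2, SD) on Day 9, following H2-DMb2, the more abundant gene. Since part of the reads fit both genes, how much of the difference lies in the sharing of reads was not tested.

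**Figure D4:**
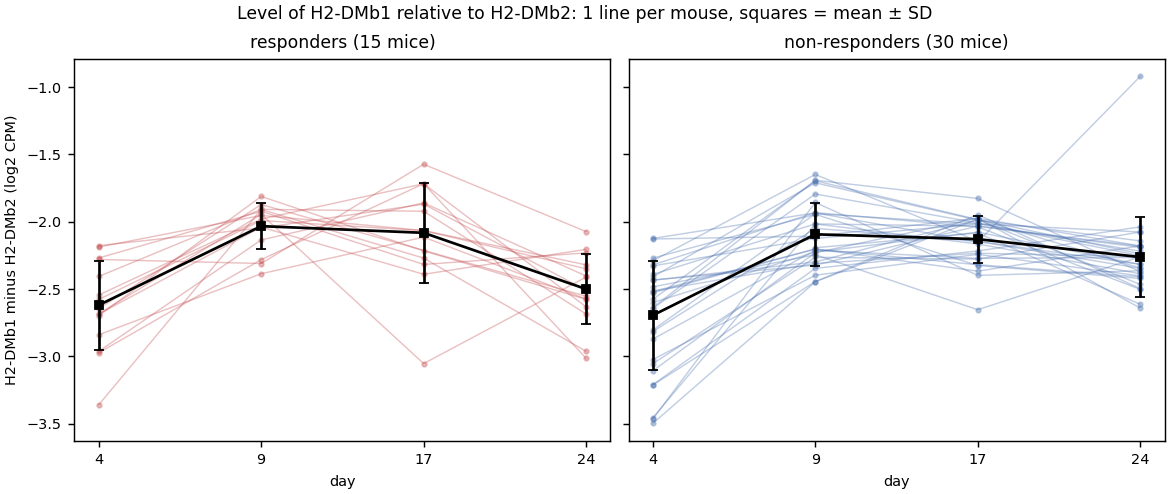
Level of H2-DMb1 minus that of H2-DMb2 (log2 CPM, vertical axis) by day in responders (left) and non-responders (right), with 1 line per mouse and squares for the mean ± SD. The mean rises from -2.62 to -2.03 in responders and from -2.69 to -2.09 in non-responders between Days 4 and 9. The single high point on Day 24 is the library of non-responder 29.

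Other partners were compared in the same way, as descriptions. H2-Ob over H2-Oa, 2.34 ± 0.47 log2 units (SD, n = 15) on Day 4 in responders and 2.48 ± 0.38 (n = 29) in non-responders, was 2.83 ± 0.25 and 2.76 ± 0.22 on Day 17. Within mice it was higher on Day 17 in 12 of 14 responders and 24 of 29 non-responders. Ciita over its target H2-Ab1 was -2.33 ± 0.40 in responders and -2.16 ± 0.42 in non-responders on Day 4, and -1.79 ± 0.10 and -1.70 ± 0.08 on Day 9. This difference was higher on Day 9 than on Day 4 in 14 of 15 responders and 28 of 29 non-responders.

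After the mean of each response and day group was subtracted, the 7 genes that fell on Day 9 varied together over the 178 libraries, with Pearson r between 0.72 (H2-DMa with H2-DMb2) and 0.98 (H2-Aa with H2-Ab1 and H2-Eb1). H2-DMb1 had r between -0.20 and -0.02 with them. H2-Ob and Ciita were most like each other (r = 0.69) and had r between 0.28 and 0.62 with the 7. These are descriptions over libraries that share mice, a number series and a composition of blood cells. The r values include the library of non-responder 29 on Day 24 and were not computed without it. In that library H2-Ob was at 4.47 and Ciita at 4.08 log2 CPM, against group medians of 6.38 and 5.52. The 10 other genes most like the mean of the set, of 13678 genes compared, were Cd79a (r = 0.92), Ighd (0.91), Cd79b (0.91), Fcmr, Fcer2a, Ephx1, Bank1, Cxcr5, Shisa5 and Hvcn1 (0.83). Cd79a and Cd79b encode the signalling chains of the B cell receptor, and Ighd encodes the constant region of IgD.

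**Figure D5:**
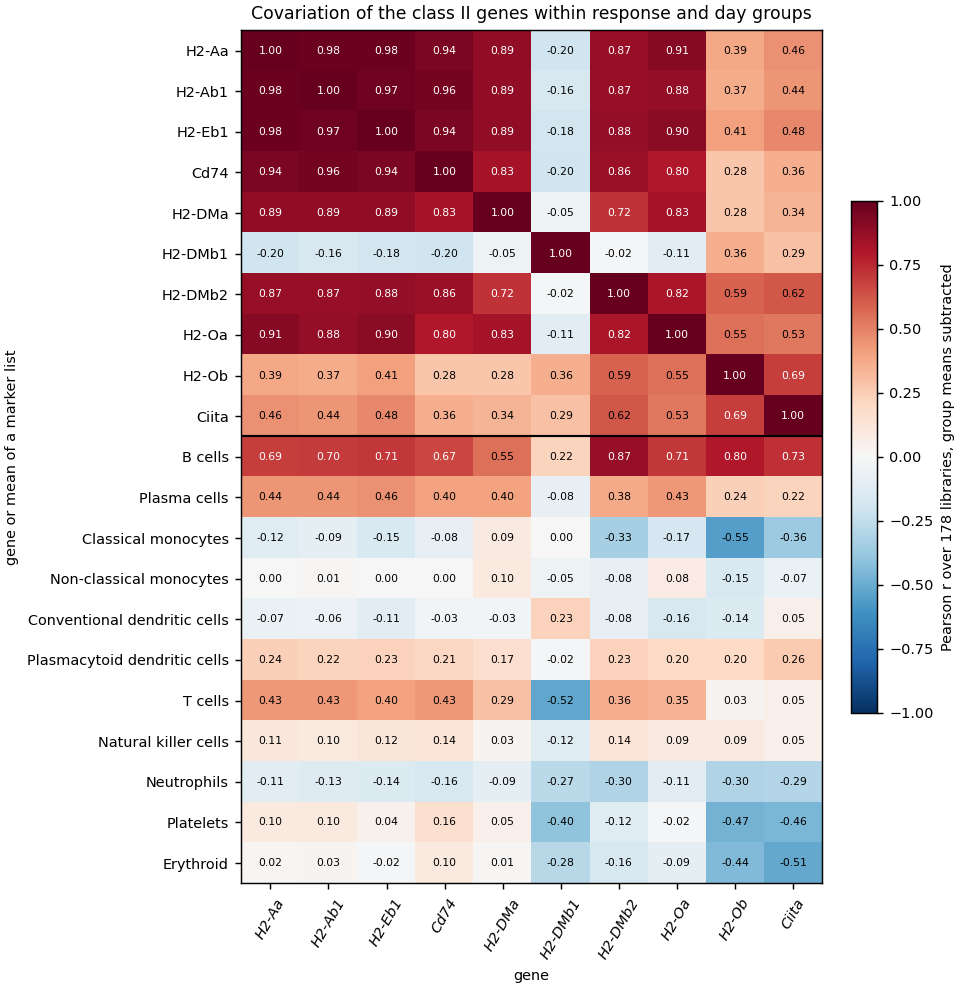
Pearson r over 178 libraries, after the mean of each response and day group was subtracted, between the class II genes (columns) and the class II genes or the means of cell type marker lists (rows, below the line). The 7 genes that fell together form a block of r between 0.72 and 0.98, H2-DMb1 stands apart from it, and among the lists B cells have the highest r with 9 of the 10 genes. The library of non-responder 29 on Day 24 is included.

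The B cell markers fell on the same days. Of the 10, 6 were lower in responders (median log2 fold change -0.28) and 10 in non-responders (median -0.30) on Day 9, where 14.2% and 27.5% of all genes were lower. On Day 17, 8 were lower in each group (medians -0.27 and -0.25), against 13.4% and 24.2% of all genes. On Day 24, 2 were higher and 1 lower in responders and 5 were lower in non-responders. Over all genes, 7.44% were higher and 9.94% lower in responders, and 24.8% lower in non-responders. The summed level of the B cell markers in responders was 544.8, 638.7 and 808.8 CPM (lowest, median, highest) on Day 4 and 413.2, 500.3 and 572.9 on Day 9, and in non-responders 575.1, 681.3 and 872 against 424.9, 537.8 and 646.9. The level of H2-Ob and Ciita followed the B cell marker mean within groups with r of 0.80 and 0.73, and that of H2-DMb1 with 0.22. The library of non-responder 29 on Day 24, low in H2-Ob and Ciita, is included in these r. Relative to the B cell marker mean, the genes that fell differed among themselves between Days 4 and 9, as a description with no test. H2-Aa went from 2.01 ± 0.32 to 1.79 ± 0.11 log2 units in responders and from 1.85 ± 0.31 to 1.74 ± 0.10 in non-responders (SD). The mean of H2-DMa was -1.35 on both days in responders and went from -1.51 to -1.45 in non-responders. That of H2-Oa went from -2.16 to -2.20 and from -2.24 to -2.28, and that of H2-DMb2 from -0.04 to -0.11 and from -0.10 to -0.13. The part of B cell abundance in the class II changes was not tested.

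Markers of other class II-bearing cells moved otherwise. Over all genes, higher calls made up 13.5% and 23.3% on Day 9 and 12.2% and 21.9% on Day 17 in responders and non-responders. Lower calls on Day 9 made up 14.2% and 27.5%. The classical monocyte markers rose on Day 9, 4 of 7 in responders and 7 of 7 in non-responders (medians 0.52 and 0.69), and their summed level went from a median of 167.2 to 245.1 CPM in responders and from 137.5 to 260 CPM in non-responders. Of the 7 conventional dendritic cell markers tested, 2 rose in responders and 5 in non-responders on Day 9. Of the plasmacytoid dendritic cell markers, 2 of 3 fell in responders, and 1 rose and 2 fell of 4 in non-responders. No marker of these lists was at 0 in every library of a group. Of the 6 non-classical monocyte markers, none passed in responders (median 0.30) and 4 rose in non-responders on Day 9, and 4 rose in each group on Day 17. T cell markers, which do not mark class II-bearing cells in mice, also fell on Day 9, 7 of 7 in both groups, with medians of -0.52 and -0.54.

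Of 37 other genes of the class II pathway, 8 rose and 5 fell in responders on Day 9 (median 0.07) and 16 rose and 8 fell in non-responders (median 0.10). Over all genes, 13.5% rose and 14.2% fell in responders, and 23.3% rose and 27.5% fell in non-responders. On Day 17 the counts of the 37 genes were 7 and 9 in responders and 7 and 7 in non-responders, and on Day 24 they were 3 and 7, and 5 and 8. The shares of all genes were 12.2% and 13.4%, and 21.9% and 24.2%, on Day 17. They were 7.44% and 9.94%, and 23.8% and 24.8%, on Day 24. On Day 9, Ctsl, a lysosomal cysteine protease, rose by 1.48 in responders and 1.91 in non-responders (adjusted p = 2.5e-05 and 8.7e-16, edgeR). Ifngr2, a chain of the interferon gamma receptor, rose by 0.40 and 0.45 (adjusted p = 0.0011 and 2.3e-17), and Irf1, an interferon-induced factor upstream of Ciita, by 0.27 and 0.44 (adjusted p = 0.0012 and 1.4e-20). Cd4, the coreceptor that binds class II on T cells, fell by 0.71 and 0.70 (adjusted p = 8.8e-07 and 1.1e-18). Ifngr2 and Irf1 thus rose on the day on which the presenting chains were lower.

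Of the factors that bind class II promoters, none rose and 2 of 7 fell in each group on Day 9, where 14.2% and 27.5% of all genes fell in responders and non-responders. On Day 17 in responders, Rfx5, a subunit of the X box factor, fell by 0.30 (adjusted p = 0.00059, edgeR) and H2-Eb2, a class II paralog, by 0.47 (adjusted p = 0.00014). Irf4 fell by 0.28 (adjusted p = 0.0014) and Socs1, an inhibitor of cytokine signalling, rose by 0.66 (adjusted p = 0.0027). In non-responders on Day 17, Cd4 fell by 0.49 (adjusted p = 6.2e-11), and Ifngr2 (0.23), Ifngr1 (0.21) and Sppl2a (0.17), the protease that clears the remnant of Cd74, rose (adjusted p = 1.7e-06, 3.3e-05 and 2.2e-05). On Day 24, Cd83, which slows the removal of class II from the surface, rose in responders (0.49, adjusted p = 0.0011), while Mif (-0.57), a ligand of CD74, and Cd4 (-0.42) fell (adjusted p = 0.0029 and 0.004). In non-responders on Day 24, Cd4 (-0.41), Ifi30 (-0.41), the lysosomal thiol reductase, and Irf8 (-0.20) fell and Ctsb, a lysosomal protease, rose (0.93, adjusted p = 1.6e-05, edgeR).

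Between responders and non-responders, Ctsb and March8, a ubiquitin ligase of surface proteins, were the 2 genes of these lists called, both on Day 4 (0.92 each, adjusted p = 0.0034 and 0.013, edgeR) and on Day 9 (0.68 and 0.81, adjusted p = 4.2e-05 and 6.6e-05), and none of the 37 was called on Days 17 and 24. Of all genes, 4.21% and 3.65% were called on Days 4 and 9 in this comparison. Within either number series, 0% of all genes were called on Day 4. On Day 9 the share was 0% among 4-digit and 2.55% among 3-digit animals. With the series as a covariate it was 4.91% and 2.17% on Days 4 and 9. The difference of the changes to Day 24 was called for Ctsb (-1.03, adjusted p = 0.032, edgeR), the 1 call among the 37 genes over the 3 days. For this difference 3.76% of all genes were called, against 4.96% among 4-digit and 0% among 3-digit animals. Without the library of non-responder 29 the share was 1.12%. The values of Ctsb and March8 in these other fits are not given here.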

How the data were processed

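Blood was collected in TRIzol, and libraries of polyadenylated RNA were prepared with a SMARTer kit. The authors aligned reads to mm10 (the submitters' processing notes name STAR) and deposited estimated counts per gene and TPM per symbol, which they calculated from the counts. The counting tool and annotation are not given in the sources used here. All 55450 gene identifiers are in GENCODE M21, from which positions were taken. No column was left unused, and no libraries held identical values.

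Counts were rounded, filtered (filterByExpr) and scaled (TMM), and tested with the quasi-likelihood F test of edgeR 4.0.16 in R 4.3.3 with Benjamini-Hochberg adjustment over all genes tested. The response groups were compared on each day (adjusted p of at most 0.05 and fold of at least 1.5), changes from Day 4 within each response group with 4 days in 1 fit, and their difference as an interaction (adjusted p of at most 0.05). Levels are log2 CPM with a prior count of 2. The mouse pairs libraries, since its 4 libraries come from 1 animal, and the mean correlation of their deviations over genes was -0.05 to 0.097 between days. For single class II genes the correlation over mice was -0.04 to 0.48 between Days 4 and 9. It was -0.42 to 0.41 between Days 4 and 17, and -0.05 to 0.31 between Days 4 and 24. Fits with the mouse as a block were alternatives, as were DESeq2 1.42.0, limma 3.58.1 on log2(TPM + 1), two-sided Wilcoxon tests on TPM, other filters and scalings, the number series, and each mouse left out. The test was also run on simulated independent counts without effects of mouse or number series, and it was thus not checked for these effects. The members and lists were chosen with earlier results of these data known. All members are named, and of other pathway genes at most the 4 with the smallest p per comparison. 1 such gene is not reported here. Some libraries of 2 mice are not analysed here.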

Additional observations from a re-analysis of the deposited data

How the results depend on the processing

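Of 1280 fits of single class II genes under another setting, 1122 kept the side of the threshold without reversing a called value. A further 84 lost and 35 gained a call with the sign kept. The other 39, named reversed below, changed sign and were called in the main fit or under the other setting, never in both. These 39 thus also lost or gained a call, and no call of the main fit was turned into a call in the other direction. Between other settings this did occur. H2-Ob in non-responders on Day 17 was called higher among 3-digit animals alone (0.11, adjusted p = 0.046, edgeR). It was called lower among 4-digit animals without the library of non-responder 29 (-0.31, adjusted p = 0.0037). The 1122 include sign changes between values called in neither fit. The mouse as a replicate block changed the call of H2-Ob in non-responders on Day 9 (-0.14, adjusted p = 0.043) and no other call. Leaving out 1 mouse at a time gave 7 to 8 called genes in responders on Day 9, 7 to 8 on Day 17 and 1 to 1 on Day 24, 8 to 9, 8 to 8 and 6 to 9 in non-responders, and 0 to 0 between the response groups on each day. The lowest counts came from H2-DMb1 in responders, and from H2-DMa, H2-Eb1 and H2-DMb2 in non-responders on Day 24 (without non-responder 4, 6, 11 or 14). Without responder 1, Ciita was called on Day 17 (-0.19, adjusted p = 0.021). DESeq2, the wider filter of at least 1 count, haemoglobin genes removed and the Day 17 label left every count within 1.5 times. At the adjusted p alone, 1 gene differed between the response groups on Day 17 and 2 on Day 24.

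Called genes under the number series were 4, 0 and 0 among 3-digit responders on Days 9, 17 and 24, and 0, 4 and 0 among 4-digit non-responders. With the series and its interaction with day in the fit, which weighs the changes of both series equally, they were 3 in responders (all higher) and 5 in non-responders (3 higher and 2 lower) on Day 24. Without the Day 24 library of non-responder 29, a setting chosen after seeing the data, they were 1 among 4-digit non-responders on Day 24, where H2-Aa was reversed at 0.13, H2-Ab1 at 0.07, H2-Eb1 at 0.16, H2-DMa at 0.12 and H2-DMb2 at 0.05, and on Day 17 H2-DMb1 was at -0.04 and H2-Ob at -0.31. With that library, H2-DMb1 was at -0.06 on Day 17, and H2-Eb1 at 0.03 and H2-DMa at 0.05 on Day 24.

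On TPM, Wilcoxon tests and limma called 10 and 10 genes lower in responders on Day 4, and 8 and 9 on Day 9. Of all genes they called 5.64% and 8.03% on Day 4, and 5.77% and 6.26% on Day 9. They called 0 and 0 for changes in responders on Days 9, 17 and 24, where few of all genes were called. Those shares were 1.24%, 0.837% and 0.852% with Wilcoxon tests and 1.7%, 0.207% and 0.112% with limma. In non-responders they called 3 and 5 on Day 9 (13.5% and 20.3% of all genes). On Day 17 they called 7 and 8 lower (49.2% and 62.3%), and on Day 24 they called 7 and 7 lower (56% and 70.4%). For the difference of the changes to Day 24, limma called 2, Cd74 and H2-DMb2 (9.69% of all genes). Reversed values, Wilcoxon then limma, were -0.67 and -0.72 for H2-Aa, -0.66 and -0.72 for H2-Ab1, -0.69 and -0.75 for H2-Eb1, -0.61 and -0.65 for H2-DMa, -0.61 and -0.63 for H2-DMb1, -0.66 and -0.68 for H2-Oa and -0.70 and -0.75 for Cd74 on Day 4, and -0.62 and -0.69 for H2-Ab1, -0.59 and -0.63 for H2-DMa and -0.66 and -0.73 for Cd74 on Day 9. In non-responders H2-DMb1 was at -0.17 and -0.05 on Day 17 and -0.19 and -0.11 on Day 24, H2-Ob at -0.20 and -0.15 and Ciita at -0.25 and -0.20 on Day 24, and Ciita at -0.28 (limma) on Day 17. The cause of these differences was not tested. The 10 genes had 1917 counts in the library that stood apart, which limits the precision of the low members there.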
